A study of Mus musculus and Homo sapiens with 8 samples.

Results

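The 10 genes described here code for cytoskeletal, membrane and secreted proteins of mesenchymal cells and include no collagen. IGFBP5, IGFBP3, SPARC and FBN2 code for secreted proteins, and FLNC, VIM and MSN for proteins of the cytoskeleton. CAV1 and THY1 code for membrane proteins, and LBH for a nuclear protein. The 10 genes were picked by Ensembl identifier from the 60675 genes of the deposited table, from their counts in the HepG2 arsenite and control libraries. The difference between these groups is therefore a description here, and fits that include these genes support nothing about them. HepG2 is a human liver carcinoma line, sampled at 25 population doublings after 24 h with water (2 controls) or 24 h with arsenite, the trivalent arsenic oxyanion (2 samples). The labels give 5 nM for arsenite and repeat this figure on the water controls. The series holds 8 samples, of which the 4 HepG2 libraries were compared, each with 26965049 to 27481613 counts. The labels do not give the cultures behind the samples, so a spread between samples of a group may be technical.

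Mesenchymal cells such as fibroblasts build and pull on the extracellular matrix. Vimentin forms their intermediate filaments, filamin C cross-links actin, moesin ties actin to the plasma membrane, and caveolin-1 coats the flask-shaped membrane pits called caveolae. SPARC and fibrillin-2 are secreted into the matrix, and the IGF-binding proteins carry insulin-like growth factors outside the cell. Liver parenchymal cells are epithelial, and hepatocytes are known for keratin filaments and for little or no vimentin.

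In the water controls 9 of the 10 genes were near 0 counts, and SPARC was abundant. IGFBP5, IGFBP3, VIM and LBH had 0 counts in both controls. FLNC, MSN, FBN2, CAV1 and THY1 had 2 to 6 counts over both controls together. SPARC had 8092 and 8099 counts there. Absence in both controls thus held for 4 of the 10 genes, low counts for 5, and neither for SPARC. Of the 27146 genes with any HepG2 count, 24939 had counts in at least 1 control. The genes were picked on these values, so nothing is read from the number absent. With arsenite, the 9 genes other than SPARC took 511 and 448 counts, whereas the controls held 10 and 5. In CPM, counts scaled to the library total, these sums were 18.8 and 16.4 with arsenite, and 0.371 and 0.182 for control 1 and control 2. All 10 genes had both arsenite libraries above both controls in CPM. Such an arrangement was found for 18.2% of the 27146 genes with any HepG2 count, and nothing is read from it, since it helped to choose the genes.

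**Figure D1:**
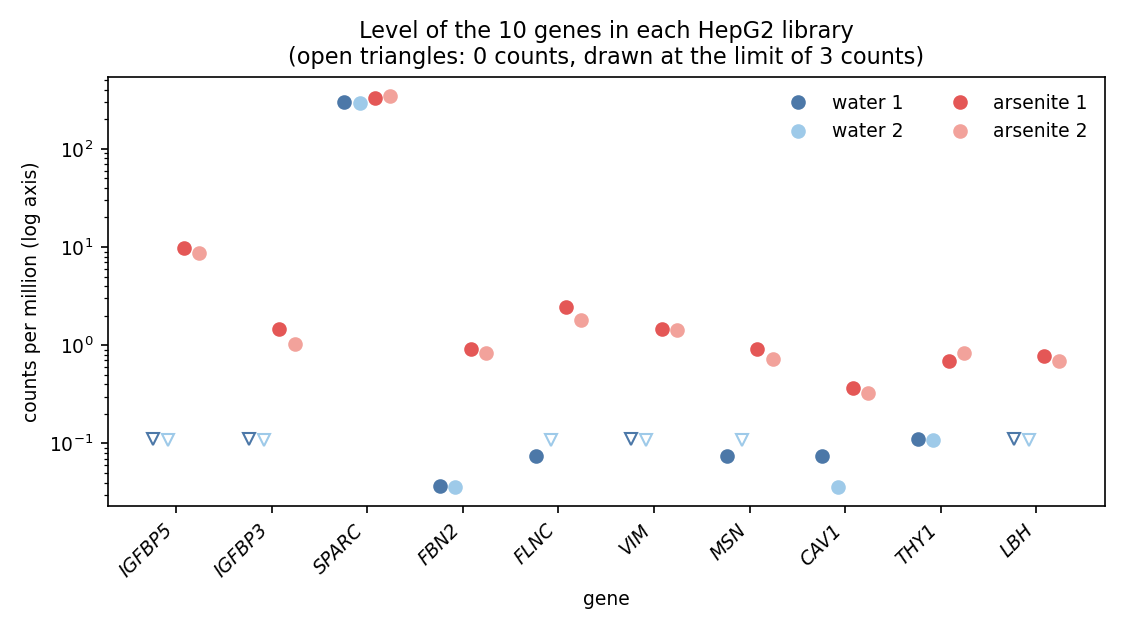
Level of each gene in the 4 HepG2 libraries, in CPM on a log axis, with 1 point per library. Open triangles mark 0 counts and are drawn at the limit of 3 counts, above the points of controls with 1 or 2 counts. SPARC lies between 294.7 and 342, and the other 9 genes lie between 0.329 and 9.75 with arsenite.

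Among the secreted proteins, IGFBP5 (ENSG00000115461), an insulin-like growth factor binding protein that also binds matrix, had 0 and 0 counts in the water controls, and 265 and 237 counts in the arsenite libraries. Both arsenite libraries were thus far above the controls, and IGFBP5 alone gave over 50% of the counts of the 9 genes in each arsenite library. Its level with arsenite was 9.20 ± 0.77 CPM (SD, n = 2), at least 167-fold higher than in the controls when these are set to the limit of 3 counts over both. A count of 0 allows a level of up to 0.111 CPM in control 1 and 0.109 CPM in control 2. These limits, like all intervals given here, cover counting error only, since the reads carry no molecular identifiers.

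IGFBP3 (ENSG00000146674), the main carrier of insulin-like growth factors in blood, had 0 and 0 counts in the water controls, and 40 and 28 counts in the arsenite libraries. The groups did not overlap, and arsenite 1 was the higher of the arsenite libraries. Its level with arsenite was 1.25 ± 0.32 CPM (SD, n = 2), at least 22.6-fold higher against the same limit. IGFBP3 and IGFBP5 belong to one protein family. Compared per length, in RPKM (reads scaled to gene length and here to each library's own total), the level with arsenite was 0.273 ± 0.069 for IGFBP3 and 1.43 ± 0.12 for IGFBP5 (SD, n = 2).

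FBN2 (ENSG00000138829), which codes for a glycoprotein of the microfibrils on which elastic fibres form, had 1 and 1 counts in the water controls, and 25 and 23 counts in the arsenite libraries. The arsenite counts stood 24.0 times above the controls after scaling to library totals, with a 95% exact counting interval of 6.28 to 203. The interval is wide because only 2 control counts lie behind it.

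SPARC (ENSG00000113140), a collagen-binding matricellular glycoprotein, had 8092 and 8099 counts in the water controls, and 8988 and 9356 counts in the arsenite libraries. The arsenite libraries were both above both controls, by far less than for the other genes. Its level was 297.4 ± 3.8 CPM in the controls and 336 ± 8.1 CPM with arsenite (SD, n = 2), a ratio of 1.13 with a counting interval of 1.11 to 1.15. The fitted log2 fold change of edgeR, scaled by TMM (trimmed mean of M values), was 0.26, and SPARC was not among the genes called. In CPM the difference for SPARC, 38.8, was nevertheless larger than that for IGFBP5, 9.20, since SPARC was expressed above 98.1% of the detected genes in the controls.

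**Figure D2:**
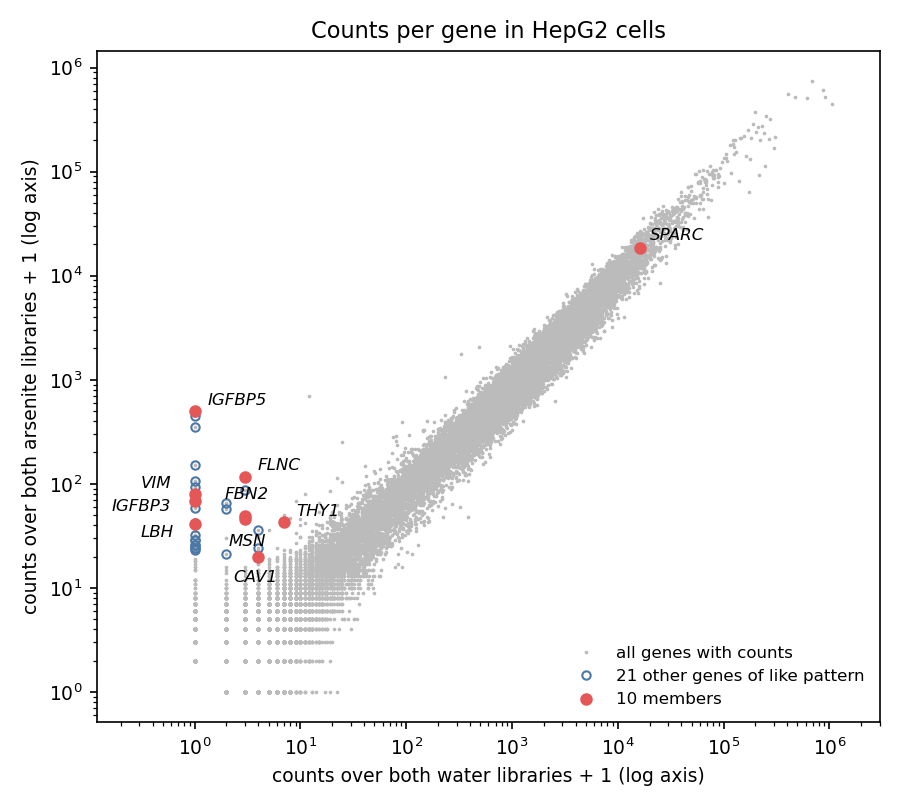
Counts over both water libraries (x) and over both arsenite libraries (y) for every gene with a HepG2 count, each plus 1, on log axes. SPARC lies on the main diagonal with 16191 and 18344 counts, while the other 9 genes (filled red) lie at the left edge, among 21 further genes of like pattern (open blue).

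Among the cytoskeletal proteins, VIM (ENSG00000026025), which codes for vimentin, had 0 and 0 counts in the water controls, and 40 and 39 counts in the arsenite libraries. The arsenite libraries were nearly equal. The level with arsenite was 1.45 ± 0.03 CPM (SD, n = 2), at least 26.3-fold higher than the controls at the limit of 3 counts.

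FLNC (ENSG00000128591), the filamin best known from striated muscle, had 2 and 0 counts in the water controls, and 66 and 50 counts in the arsenite libraries. It had the second-highest counts of the 9 genes in both arsenite libraries, 2.13 ± 0.42 CPM (SD, n = 2). The ratio to the controls was 57.9, with a counting interval of 15.7 to 484, and it rested on control 1, which held both control counts. Without control 1 a lower bound of 19.5-fold remains, and without control 2 the ratio was 28.7.

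MSN (ENSG00000147065), which codes for moesin, had 2 and 0 counts in the water controls, and 25 and 20 counts in the arsenite libraries. The groups did not overlap, and again control 1 held both control counts. The ratio was 22.5, with a counting interval of 5.87 to 191. Without control 1 the bound was 7.56-fold, and without control 2 the ratio was 11.1. Moesin has a processed pseudogene and filamin C a partial copy, so reads may be shared with these, depending on how reads that map more than once were counted.

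Of the membrane proteins, CAV1 (ENSG00000105974) had 2 and 1 counts in the water controls, and 10 and 9 counts in the arsenite libraries, the fewest of the 10 genes. The ratio was 6.32, with a counting interval of 1.86 to 33.4, and it was 9.57 without control 1 and 4.70 without control 2. THY1 (ENSG00000154096) codes for a lipid-anchored surface glycoprotein used as a marker of fibroblasts. THY1 had 3 and 3 counts in the water controls, and 19 and 23 counts in the arsenite libraries. It was the gene with the most control counts after SPARC, and its ratio was 6.99, with a counting interval of 2.96 to 20.1. CAV1 and THY1 thus had ratios below those of FLNC, MSN and FBN2, but their counting intervals overlapped with those of all 3.

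LBH (ENSG00000213626), which codes for a small nuclear protein that modulates transcription in developing limb and heart, had 0 and 0 counts in the water controls, and 21 and 19 counts in the arsenite libraries. The arsenite libraries were close to each other, and the level with arsenite was 0.733 ± 0.055 CPM (SD, n = 2). It was at least 13.3-fold higher than the controls at the limit of 3 counts. As for the other genes at 0 in both controls, the counts allow a lower bound and no estimate of the fold.

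Levels of different genes can be compared only per length, and the lengths behind the deposited RPKM ran from 4.08 kb for CAV1 to 13.2 kb for FBN2. With arsenite, SPARC stood at 69.6 ± 1.7 RPKM of the own total and IGFBP5 at 1.43 ± 0.12 (SD, n = 2), a 48.7-fold difference. VIM followed at 0.292 ± 0.006, IGFBP3 at 0.273 ± 0.069 and FLNC at 0.229 ± 0.046. The ranges of the arsenite libraries overlapped between VIM and IGFBP3 and between IGFBP3 and FLNC, so the order within each pair was not resolved. The ranges of VIM and FLNC did not overlap. LBH (0.161 ± 0.012), MSN (0.138 ± 0.022) and THY1 (0.130 ± 0.017) came next, with overlapping ranges between neighbours. CAV1 (0.0855 ± 0.0067) and FBN2 (0.0669 ± 0.0042) were lowest, and these last levels did not overlap with each other or with THY1. By mean level per length, FBN2 was thus the lowest of the 10 genes although CAV1 had the fewest counts. This order leaves counting error out of account, and CAV1 rests on 19 arsenite counts and FBN2 on 48. In CPM, IGFBP5 exceeded 65.0% of the genes detected with arsenite, and the 8 others apart from SPARC exceeded 42.0% to 54.5%. These ranks are not per length, so they depend on gene length as well as level.

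The split of counts between the arsenite libraries is given as a description without a test, since the genes were picked from these libraries and their split was known. After TMM scaling, arsenite 1 made up 49.4% of the size of both arsenite libraries. IGFBP5 had 52.8% of its arsenite counts in arsenite 1, with a 95% exact (Clopper-Pearson) interval of 48.3% to 57.2%. The share was highest for IGFBP3 at 58.8% (46.2% to 70.6%) and lowest for THY1 at 45.2% (29.8% to 61.3%). For each of the 10 genes the interval included the library share. Of 5651 genes with 19 to 502 arsenite counts, the range of the 9 genes, 14.3% had an interval that left it out. SPARC, at 49.0% (48.3% to 49.7%), included the TMM share but left out the share of library totals, 49.8%.

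**Figure D3:**
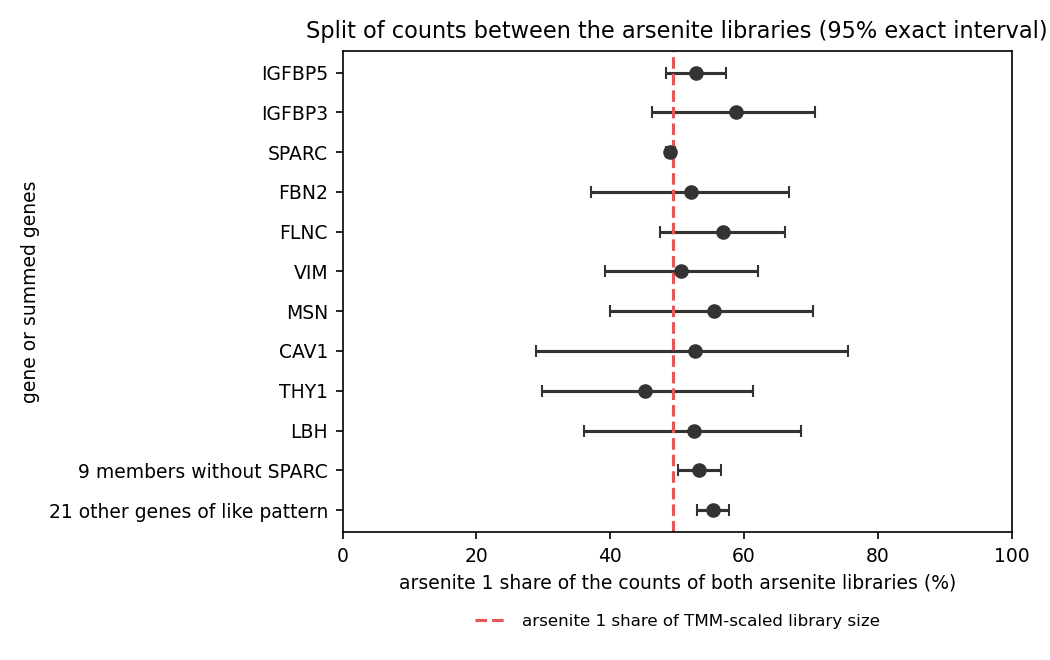
Share of the counts of both arsenite libraries that fell in arsenite 1, in percent, for each gene and for summed genes, with 95% exact intervals. The dashed line is the share of the TMM-scaled library size, 49.4%; it lies inside the interval of each of the 10 genes and below the intervals of both sums.

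Summed over the 9 genes without SPARC, arsenite 1 held 53.3% of the counts, with an interval of 50.1% to 56.5%, which lay above the library share. Arsenite 1 thus stood 1.17 times above arsenite 2 for the summed genes. Without IGFBP5 the remaining 8 genes gave 53.8% (49.1% to 58.5%), an interval that includes the library share. Within each arsenite library the make-up of the 9 genes was alike: IGFBP5 gave 51.9% (47.4% to 56.3%) of their counts in arsenite 1 and 52.9% (48.2% to 57.6%) in arsenite 2. FLNC gave 12.9% (10.1% to 16.1%) and 11.2% (8.40% to 14.4%), and VIM gave 7.83% (5.65% to 10.5%) and 8.71% (6.26% to 11.7%). The intervals of all 9 genes overlapped between the libraries.

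For context, the same limits were applied to the whole table. They are the ranges of the 9 genes themselves, so the counts describe the table and support nothing about the genes. Of the 5651 genes with 19 to 502 arsenite counts, the median count over both controls was 111, and 44 genes (0.779%) had at most 6, as all 9 genes did. Under a stricter definition, at most 3 counts over both controls and 10 or more in each arsenite library, 28 genes qualified of the 13712 that met the arsenite limit. IGFBP5, IGFBP3, FLNC, VIM, MSN, FBN2 and LBH were 7 of these 28. CAV1 fell just outside with 9 counts in arsenite 2, and THY1 with 6 control counts. These limits, too, use the values on which the genes were picked.

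The 21 other genes of the same pattern together had 5 and 6 counts in control 1 and control 2, and 964 and 778 in the arsenite libraries, and 15 of them were at 0 in both controls. Arsenite 1 held 55.3% (53.0% to 57.7%) of their arsenite counts, an interval that overlaps with that of the 9 genes. The 2 with the most counts were ENSG00000164692, at 0 in both controls with 258 and 194 arsenite counts, and ENSG00000163359, also at 0 in both, with 168 and 181. Their share in arsenite 1 was 57.1% (52.4% to 61.7%) and 48.1% (42.8% to 53.5%). In total RNA from a culture, more cells of a type and more RNA per cell cannot be told apart. VIM and THY1 are also markers of fibroblasts, and the part of RNA from other cells in the counts of the 9 genes was not tested.

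Across all genes, edgeR's quasi-likelihood test tested 14389 and called 11.8% of them higher with arsenite at an adjusted p of 0.05 (Benjamini-Hochberg). Of the 10 genes 9 passed its filter on low counts and 8 were called higher, with SPARC the exception. CAV1 did not pass the filter. In the fit without a filter, which called 5.31% of 27146 genes higher, 9 of the 10 were called, CAV1 included. In the filtered fit without control 1, CAV1 did pass, with a log2 fold change of 3.20, and was not called. DESeq2 called 14.8% of 11892 genes higher, and of the 10 genes gave an adjusted p for IGFBP5 and SPARC alone and called IGFBP5. The genes were chosen on this contrast, so nothing is read from their count. The 8 genes of the filtered edgeR fit stayed called when any 1 of the 4 libraries was left out, fits that called 2.47% of all genes higher without control 1, 11.4% without control 2, 1.39% without arsenite 1 and 9.25% without arsenite 2. The same 8 were called with limma-voom (12.3% of all genes higher), RLE scaling (12.9%) and library-size scaling (7.87%). A mean CPM of at least 5, with 14.4% of all genes called higher, left SPARC alone, uncalled. The deposited RPKM, with 1.56% called higher at a pseudocount of 1 and 1.47% at 0.1, left IGFBP5 and SPARC and called IGFBP5.

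The RPKM values as the authors deposited them order the libraries differently. SPARC stood at 54.7 and 89.8 deposited RPKM in control 1 and control 2 and at 82.5 and 100.2 in arsenite 1 and arsenite 2, so that control 2 exceeded arsenite 1. Scaled to each library's own total, the same counts gave 62.1 and 61.0 RPKM for water, then 68.4 and 70.8 for arsenite. For IGFBP5 the deposited values were 1.34 in arsenite 1 and 1.97 in arsenite 2, whereas its own-total values were 1.51 and 1.34. The authors' divisor for SPARC was 1.14 times the own total in control 1, 0.679 times in control 2, 0.829 times in arsenite 1 and 0.706 times in arsenite 2.

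**Figure D4:**
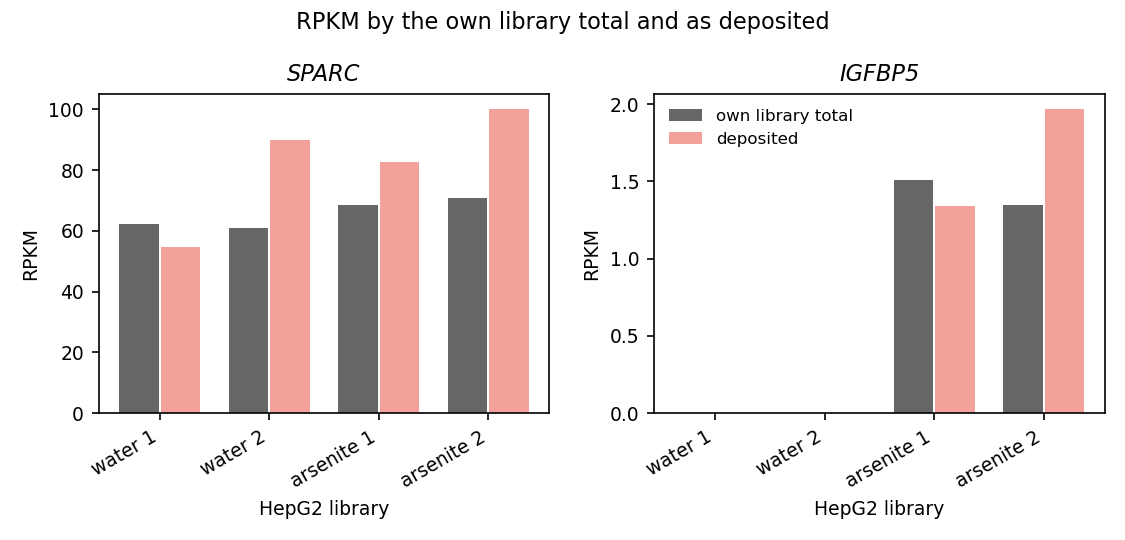
RPKM of SPARC (left) and IGFBP5 (right) in the 4 HepG2 libraries, scaled to the own library total (grey) and as deposited (pink); bars start at 0 and show 1 library each. As deposited, SPARC spans 54.7 to 89.8 within the controls, against 61.0 to 62.1 by the own total, and the order of the arsenite libraries for IGFBP5 is turned round.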

How the data were processed

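RNA-seq counts of the 4 HepG2 libraries were compared. The authors deposited raw read counts per gene under human Ensembl identifiers, and RPKM values in a second table. STAR 2.4.1d, bcl2fastq 1.8.4, the build GRCh38 and featureCounts 1.4.6-p4 are listed without roles, per the submitters' processing notes; a TruSeq RNA v2 kit was used, per the labels' protocols. The sources used here give no strand setting for the counting, so reads of overlapping antisense genes may be included.

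The deposited RPKM values and the counts showed that the authors' divisors run in a cycle of 14, of which 8 equalled a column total within 0.01%. Gene lengths were taken from the same relation, and levels per length were recomputed with each library's own total.

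The 10 genes and all lists were chosen with earlier results of these data known. Symbols of the 10 genes came with their selection. Of the table's identifiers 0 matched the name tables used here, which list mouse genes. The planned lists of related genes and of cell type markers, liver markers included, were therefore not analysed here. The other genes of like pattern, ranked by summed arsenite count, are left without names here. Whether any of them belong to the planned lists was not checked.

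Arsenite was compared with water in edgeR 4.0.16 (R 4.3.3) on counts, by a 2-sided quasi-likelihood test after the default filter and TMM scaling, with p-values adjusted over all genes tested (Benjamini-Hochberg). The edgeR fit alone was tested on simulated data, made from genes that passed its filter. Alternatives used DESeq2 1.42.0, limma 3.58.1, other scalings and filters, the deposited RPKM and each library left out. Intervals are exact binomial at 95% (scipy 1.17.1), and 3 counts set the limit for a count of 0. NIH3T3 libraries, from another species, were left out of every comparison and entered only the recovery of the divisors and gene lengths. Replicates were numbered in accession order.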

Additional observations from a re-analysis of the deposited data

How the results depend on the processing

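The genes were chosen on the contrast of arsenite with water, so their calls are a description. Of the 10 genes 8 were called higher in edgeR, where 11.8% of all genes were. The same held with limma-voom (12.3%), RLE (12.9%) or library-size scaling (7.87%). In fits without 1 library, the log2 fold changes of these 8 genes ran from 2.77 to 11.2. In such fits the arm with 1 sample borrows its spread from the other. Without a filter 9 were called, CAV1 added (5.31% of all genes). DESeq2 called 1, IGFBP5 (14.8%), and gave no adjusted p for 8 genes. In DESeq2 all 10 had an unadjusted p under 0.05. The share of all genes under that unadjusted limit was not computed, so nothing is read from it. A mean CPM of at least 5 left SPARC as the only gene tested and called 0 (edgeR, 0 at an unadjusted p under 0.05; 14.4% of all genes called higher). The deposited RPKM left IGFBP5 and SPARC and called 1 with a pseudocount of 1 (1.56% of all genes) or 0.1 (1.47%). SPARC stayed uncalled in 12 settings, with a log2 fold change of 0.18 to 0.38 and an adjusted p of 0.0947 to 0.465 (edgeR, DESeq2, limma). Library-size scaling gave a median log2 fold change of -0.10 over all genes, against -0.02 with TMM, and 0.18 for SPARC.

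The summed CPM of the 10 genes was 354 with arsenite and 297.7 in the controls. With TMM-scaled sizes it was 364 and 289.5, without SPARC 17.6 and 0.276, and without IGFBP5 344.6 with arsenite; leaving out 1 library gave 349 to 358 and 294.9 to 300.5, an alternative chosen after seeing the data, as were the ratios without 1 library. The ratio of the arsenite libraries for the 9 genes was 1.17 with TMM and 1.15 with library totals. SPARC's mean level was 91.4 and 72.3 in deposited RPKM, against 69.6 and 61.6 by the own total, a shift that follows from the divisors. Without either control, the lower bounds of the genes at 0 fall with the control total, to 82.7-fold for IGFBP5, since the limit stays at 3 counts. Ratios of genes with 2 to 6 control counts are limited by depth. No paired analysis was possible because the labels give no replicate numbers.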
